A study of Homo sapiens with 4 samples.

Results

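The 37 genes of the human mitochondrial genome were examined in HCT116 cells after transfection with small interfering RNA (siRNA). They were chosen by chromosome alone: every gene that the GENCODE annotation places on the mitochondrial chromosome, with a symbol that begins with MT-, was taken, and all 37 were present among the 58735 gene identifiers measured. Of these, 13 code for proteins, 2 for ribosomal RNAs (rRNAs) and 22 for transfer RNAs (tRNAs). On the reference sequence 28 of them run along the plus strand and 9 along the minus strand. HCT116 is a human colorectal carcinoma line with epithelial features, grown here in Maccoy 5A medium with fetal bovine serum. A pair of libraries came from cells that had received siRNA control, and the other two are labelled as siRNA against KIF26B, a member of the kinesin superfamily, so that the comparison asks which transcripts differ when KIF26B is targeted. In all 4 libraries, RNA was taken 48 h after transfection by the Trizol method, selected for poly(A) tails and sequenced as paired reads of 150 bases. The sources do not say which siRNA sequence was used in each library, nor whether replicates were separate cultures, so the P values measure only the spread between these libraries.

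Both strands of the mitochondrial genome are transcribed into long precursors, in which tRNAs sit between most of the other genes. Cutting out the tRNAs releases the mRNAs and rRNAs, which receive short A tails, whereas mature tRNAs end in CCA and the MT-ND6 mRNA is known for having little or no tail. The 13 mRNAs code for core subunits of respiratory complexes I, III and IV and of ATP synthase (complex V), and the 2 rRNAs and 22 tRNAs serve the ribosomes that translate them inside the organelle. Since neighbouring genes are cut from shared precursors, they are not independent measurements. In bulk RNA, a different number of mitochondrial genomes per cell and a different amount of RNA per genome cannot be told apart.

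The levels are given as FPKM (fragments on a gene divided by its length and by the size of the library), which the authors scaled to library sizes between 18068934 and 24673739 fragments. KIF26B itself stood at 0.110 and 0.205 FPKM in control siRNA replicates 1 and 2 (31 and 73 reads), and at 0.140 and 0.0307 FPKM in the libraries labelled KIF26B siRNA replicates 1 and 2 (43 and 8 reads). The level in the library labelled KIF26B siRNA replicate 1 lay between the controls, so its label could not be checked by the targeted gene, and every direction below is that of the labelled libraries. Epithelial EPCAM (77.0 to 98.6 FPKM), KRT8, KRT18, KRT19 and CDH1 were present in all 4 libraries and CDX2 was low (2.32 to 3.44 FPKM), while the intestinal genes VIL1 and CEACAM5 had at most 5 reads and CDX1 was listed at 0 throughout. Of the genes fixed to mark other cell types, PTPRC, COL1A2 and HBB had at most 1 read in any library, COL1A1 stood at 4.74 to 8.69 FPKM, and PECAM1 was not matched by symbol. What part cell make-up has in the mitochondrial levels was not tested.

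Counted as reads, mitochondrial transcripts took a larger part of both libraries labelled KIF26B siRNA than of either control, but the 2 libraries differed in what was higher. Their share of the scaled library size was 6.83% and 6.89% in control siRNA replicates 1 and 2, and 9.68% and 8.18% in the libraries labelled KIF26B siRNA replicates 1 and 2. The controls lay close together and both labelled KIF26B libraries lay above them. The group means were 6.86% ± 0.0418 (SD, n = 2) and 8.93% ± 1.06 (SD, n = 2), a difference of 2.07 percentage points with an exact two-sided permutation p of 0.333, the smallest that 2 libraries against 2 can give, so this design cannot reach 0.05. Without KIF26B siRNA replicate 1 the difference was 1.32 percentage points. Relative to the control mean, the share was 1.41 times as large in the library labelled KIF26B siRNA replicate 1 and 1.19 times in replicate 2. The scaling used by the authors differed from the total of reads recovered on genes by up to 4.01% (in KIF26B siRNA replicate 2), and as a share of recovered reads the same ratios were 1.40 and 1.13.

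The mRNAs, rRNAs and tRNAs did not follow the same pattern in both libraries. The 13 mRNAs together held 5.96% and 6.0% of the scaled library size in the controls and 8.44% and 6.19% in the labelled libraries, so that KIF26B siRNA replicate 2 was only slightly above the controls. As a share of recovered reads, this library was at 0.979 times the control mean, which turns its direction. The rRNAs held 0.832% and 0.854% in the controls against 1.19% and 1.92% in the labelled libraries, and the tRNAs 0.0367% and 0.0353% against 0.0521% and 0.0578%. For rRNAs the library labelled KIF26B siRNA replicate 2 was the highest, at 2.28 times the control mean against 1.41 times in replicate 1.

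The make-up of the mitochondrial reads showed the same contrast without any dependence on library scaling. In the library labelled KIF26B siRNA replicate 1, mRNAs made up 87.2% of mitochondrial reads, rRNAs 12.3% and tRNAs 0.539%, against 87.3% and 87.1%, 12.2% and 12.4%, and 0.538% and 0.513% in the controls. In replicate 2 the shares were 75.8%, 23.5% and 0.707%. Replicate 1 thus held more mitochondrial RNA in control-like proportions, whereas replicate 2 held it in different proportions. On the log2 scale the ratio of rRNA to mRNA reads was -2.84 and -2.81 in the controls, -2.83 in replicate 1 and -1.69 in replicate 2. The group difference of 0.57 had an exact permutation p of 0.667 and was -0.0032 without replicate 2 and 1.14 without replicate 1. The log2 ratio of tRNA to mRNA reads was -7.34 and -7.41 in the controls and -7.34 and -6.74 in the labelled KIF26B libraries (difference 0.33, exact permutation p = 0.333), and the difference was 0.036 without replicate 2 and 0.63 without replicate 1.

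**Figure D1:**
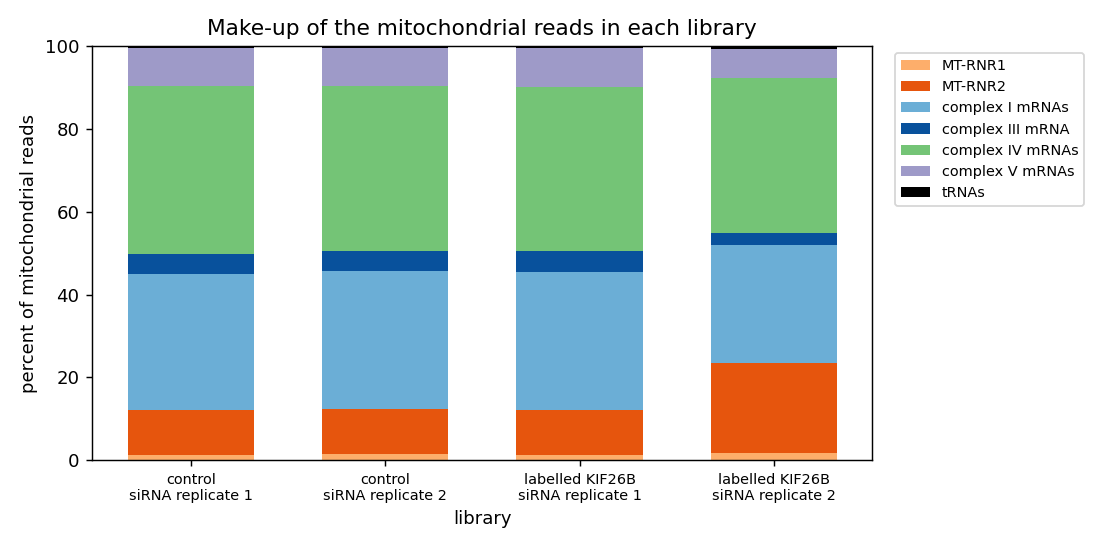
Stacked bars give the percent of mitochondrial reads (vertical axis, 0 to 100) that fell on each rRNA, on the mRNAs of each respiratory complex and on the tRNAs, 1 bar for each of the 4 libraries. The first 3 bars look alike, with rRNAs at 12.2%, 12.4% and 12.3%, while in the library labelled KIF26B siRNA replicate 2 the rRNAs reach 23.5%.

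MT-RNR2 codes for the rRNA of the large subunit of the mitochondrial ribosome (16S) and lies at chrM:1671-3229 on the plus strand. Its level was 4718 and 4822 FPKM in control siRNA replicates 1 and 2, and 6794 and 11459 FPKM in the libraries labelled KIF26B siRNA replicates 1 and 2. Both labelled libraries lay above both controls, and replicate 2 stood at 2.4 times the control mean. MT-RNR2 rose by 0.89 ± 0.29 on the log2 scale (SE, n = 2 per group), past an unadjusted limma P of 0.05 but with an adjusted p of 0.287. MT-RNR2 alone took 21.8% of the mitochondrial reads in replicate 2, against 10.9% in replicate 1. Without replicate 2 its log2 fold change was 0.51, less than the 0.89 of all 4 libraries by more than 1.5 times, and without either control (0.87 and 0.90) it did not pass.

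MT-RNR1 codes for the rRNA of the small subunit (12S) at chrM:648-1601. It stood at 1009 and 1074 FPKM in the controls and at 1340 and 1450 FPKM in the libraries labelled KIF26B siRNA, again with no overlap between the groups. It rose by 0.42 ± 0.12 on the log2 scale (SE, n = 2 per group; limma adjusted p = 0.269), past the unadjusted threshold, and did not pass without either control (0.38 and 0.47). The ratio of MT-RNR2 to MT-RNR1 reads was 7.64 and 7.34 in the controls, 8.29 in replicate 1 and 12.9 in replicate 2, which on the log2 scale is a group difference of 0.47 (exact permutation p = 0.333). The difference was 0.15 without replicate 2 and 0.79 without replicate 1.

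In controls, the FPKM of the mRNA genes spanned 17.1-fold and 19.3-fold, from MT-ATP8 at the low end to MT-CO2 at the high end, and the controls differed from each other by 0.112% to 9.51% per gene (median 1.77%). MT-ATP8 is 207 bases long and carried on 1 transcript with MT-ATP6 (9086 and 8995 FPKM in the controls). The span can therefore not be read as one of mRNA amounts. The next lowest was MT-ND1, at 1958 and 2029 FPKM. In the library labelled KIF26B siRNA replicate 1, all 13 mRNAs were above both controls, at 1.27 to 1.82 times the control mean (median 1.42). In replicate 2 they ranged from 0.747 to 1.36 times the control mean (median 0.970). On the authors' scaling, 5 mRNAs were above both controls and 6 below both in that library. The plot of mRNA and rRNA levels shows these libraries side by side.

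**Figure D2:**
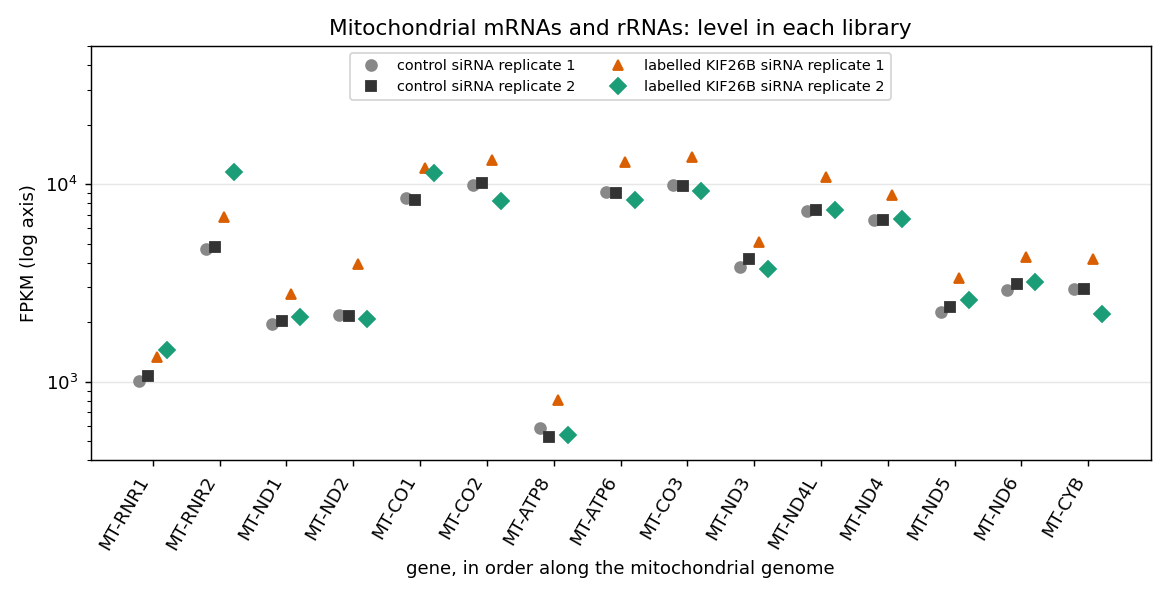
FPKM on a log axis for the 2 rRNAs and 13 mRNAs in genome order, 1 point per library. The library labelled KIF26B siRNA replicate 1 (triangles) is above both controls at every gene, while replicate 2 (diamonds) stands highest of all libraries at MT-RNR2 with 11459 FPKM and lowest of all at MT-CYB with 2195 FPKM.

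MT-CO1 was the only mRNA that passed the unadjusted threshold. It codes for subunit 1 of cytochrome c oxidase (complex IV), which holds the site where oxygen is reduced. Its level was 8504 and 8355 FPKM in the controls and 12047 and 11432 FPKM in the libraries labelled KIF26B siRNA, well apart. It rose by 0.48 ± 0.11 on the log2 scale (SE, n = 2 per group; limma adjusted p = 0.248), at 1.43 and 1.36 times the control mean. With either control left out it no longer passed, at about the same size (0.46 and 0.49).

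The other complex IV mRNAs split between the labelled libraries. MT-CO2, whose product receives electrons from cytochrome c, stood at 9908 and 10171 FPKM in the controls, 13303 in KIF26B siRNA replicate 1 and 8224 in replicate 2, that is, above both controls in the former and below both in the latter. MT-CO3 stood at 9846 and 9798 FPKM in the controls and at 13739 and 9219 FPKM in the labelled libraries, again on both sides. Neither passed the test (log2 fold changes 0.06 and 0.20). The ratio of MT-CO1 to MT-CO2 reads was 1.94 and 1.85 in the controls, 2.04 in replicate 1 and 3.13 in replicate 2. The log2 ratio differed by 0.42 between groups (exact permutation p = 0.333), by 0.11 without replicate 2 and by 0.73 without replicate 1.

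MT-CYB codes for cytochrome b, the mitochondrially coded subunit of complex III. It stood at 2940 and 2937 FPKM in the controls, the closest agreement between controls of any mRNA, and at 4159 and 2195 FPKM in the libraries labelled KIF26B siRNA replicates 1 and 2. The labelled libraries lay on opposite sides of the controls, at 1.42 and 0.747 times their mean, and the log2 fold change of 0.04 ± 0.34 (SE, n = 2 per group) had an adjusted p of 0.962. Without KIF26B siRNA replicate 1, the log2 fold change was -0.42 for MT-CYB and -0.29 for MT-CO2, both past the unadjusted threshold in a test in which the lone remaining library was assumed to vary like the controls.

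The complex V mRNAs, MT-ATP6 and MT-ATP8, share 46 bases and are carried on 1 transcript, so reads in the overlap cannot be assigned to either. MT-ATP6, the subunit that forms the proton channel with the ring, stood at 9086 and 8995 FPKM in the controls and 12998 and 8287 FPKM in the labelled libraries. MT-ATP8, a small subunit of the stalk, stood at 581 and 528 FPKM in the controls and 813 and 537 FPKM in the labelled libraries. Replicate 1 was high and replicate 2 at or below the controls, and neither gene passed the test (log2 fold changes 0.20 and 0.26).

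The 7 subunits of complex I, the entry point for electrons from NADH, had no member that passed the test. MT-ND2 showed the widest gap between the labelled libraries as a ratio (1.90), though not in FPKM, with 2172 and 2147 FPKM in the controls, 3924 in KIF26B siRNA replicate 1 and 2070 in replicate 2 (log2 fold change 0.40 ± 0.34 SE, limma adjusted p = 0.597). MT-ND5 stood at 2256 and 2387 FPKM in the controls and at 3354 and 2603 FPKM in the labelled libraries. MT-ND1 stood at 1958 and 2029 against 2773 and 2125 FPKM. Both genes had the labelled libraries above the controls on the authors' scaling. MT-ND4L and MT-ND4, which overlap by 7 bases and share a transcript, were at 1.47 and 1.33 times the control mean in replicate 1, while in replicate 2 their levels of 7363 and 6631 FPKM were level with the controls (7352 and 7367 FPKM for MT-ND4L, 6574 and 6604 FPKM for MT-ND4). MT-ND3 stood at 3828 and 4162 FPKM in the controls, and at 5089 and 3732 FPKM in the labelled libraries, which again fell on both sides.

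Set against complex I, the reads of the other complexes kept their control proportions in replicate 1 and not in replicate 2. The ratio of complex III to complex I reads was 0.150 and 0.147 in the controls, 0.148 in replicate 1 and 0.108 in replicate 2. The ratio of complex V to complex I was 0.283 and 0.273 in the controls, 0.280 in replicate 1 and 0.248 in replicate 2, and that of complex IV to complex I was 1.24 and 1.20, then 1.20 and 1.31. The exact permutation p values of the 3 log2 ratios were 0.667, 0.667 and 1. The smallest that 2 libraries against 2 can give is 0.333, so this test cannot decide whether the groups differed.

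**Figure D3:**
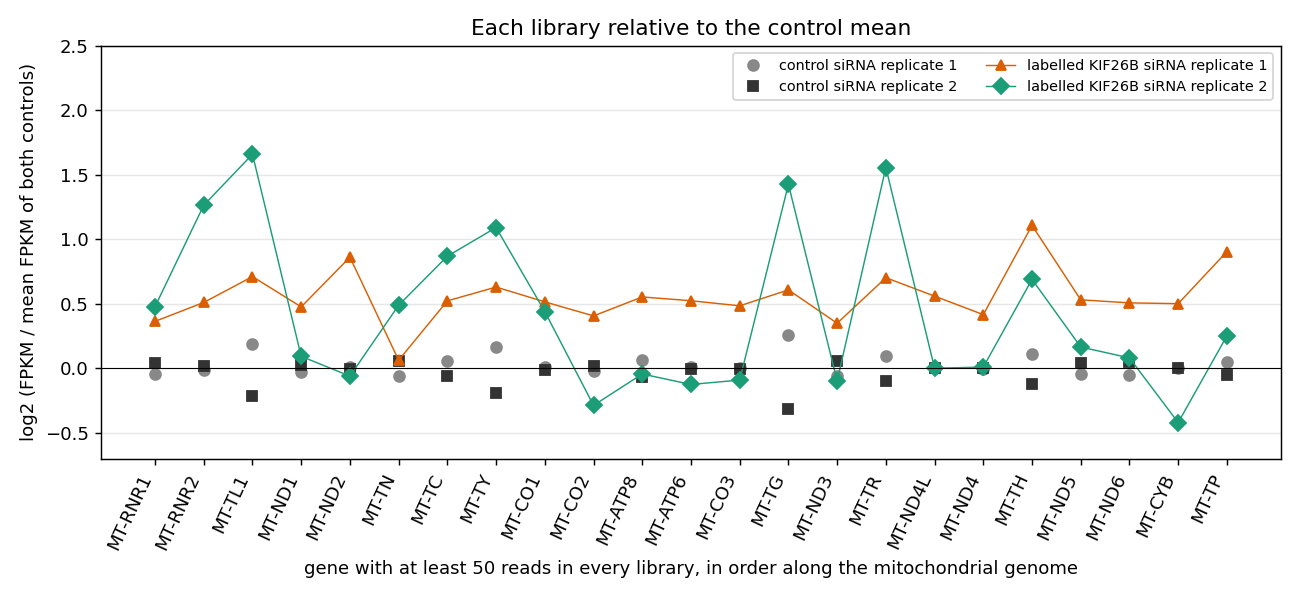
Log2 of each library's FPKM over the mean of both controls, for the 23 genes with at least 50 reads in every library, in genome order, with lines that join the genes of 1 labelled library. KIF26B siRNA replicate 1 (triangles) lies at 1.27 to 1.82 times the control mean for the mRNAs, while replicate 2 (diamonds) lies near the controls at most mRNAs and well above them at MT-RNR2 (2.4 times) and several tRNAs.

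MT-ND6, also a complex I subunit, is the only mRNA on the minus strand of the reference. It stood at 2916 and 3119 FPKM in the controls and at 4289 and 3191 FPKM in the labelled libraries. Both were above the controls on the authors' scaling. Its log2 fold change was 0.29 ± 0.19 (SE, n = 2 per group, limma adjusted p = 0.486). Its neighbour on the plus strand beyond a tRNA is MT-CYB, and the ratio of MT-ND6 to MT-CYB reads was 0.456 and 0.489 in the controls, 0.474 in replicate 1 and 0.669 in replicate 2. Only replicate 2 stood apart in this ratio (exact permutation p of the log2 ratio, 0.667).

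Taken over all mitochondrial reads, the strands were represented alike in all libraries. Minus-strand genes held 2.73% and 2.85% of mitochondrial reads in the controls and 2.81% and 2.67% in the libraries labelled KIF26B siRNA, the latter on both sides of the former. The log2 ratio of minus-strand to plus-strand reads differed by -0.03 between groups (exact permutation p = 0.667). Summed as FPKM, which gives short genes more weight, it differed by 0.16. The plus-strand sum includes the rRNAs, at 12.2% and 12.4% of mitochondrial reads in the controls and 12.3% and 23.5% in the labelled libraries. The strands were not compared without the rRNAs. A strand setting for the counting is not given in the sources used here. Reads of a minus-strand gene and of a plus-strand precursor across the same bases therefore cannot be told apart.

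The tRNAs were unevenly covered. MT-TN, MT-TC, MT-TY and MT-TP, the tRNAs for asparagine, cysteine, tyrosine and proline, all lie on the minus strand and held 90.7% and 91.7% of tRNA reads in the controls and 88.9% and 87.2% in the libraries labelled KIF26B siRNA. All mitochondrial tRNA genes are shorter than the 150-base reads, and how this and the poly(A) selection bear on their counts was not tested. Their sequences are shown because they carry most of the tRNA signal, from GENCODE transcripts on GRCh37, 5′ to 3′ along the gene, with the anticodon in capitals: MT-TN at chrM:5657-5729 (-), MT-TC at chrM:5761-5826 (-), MT-TY at chrM:5826-5891 (-) and MT-TP at chrM:15956-16023 (-). MT-TC and MT-TY share 1 base.
MT-TN: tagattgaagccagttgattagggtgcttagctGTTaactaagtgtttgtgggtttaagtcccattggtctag
MT-TC: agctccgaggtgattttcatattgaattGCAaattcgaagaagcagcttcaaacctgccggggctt
MT-TY: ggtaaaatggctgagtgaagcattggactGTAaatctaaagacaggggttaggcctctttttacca
MT-TP: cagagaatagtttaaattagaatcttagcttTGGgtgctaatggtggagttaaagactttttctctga

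MT-TC stood at 1835 and 1697 FPKM in the controls and at 2537 and 3225 FPKM in the libraries labelled KIF26B siRNA replicates 1 and 2. MT-TY stood at 259 and 203 FPKM in the controls and at 357 and 492 FPKM in the labelled libraries. Both tRNAs were higher in both labelled libraries, with replicate 2 on top, and rose by 0.70 ± 0.17 and 0.87 ± 0.23 on the log2 scale (SE, n = 2 per group; limma adjusted p = 0.248 for MT-TC and adjusted p = 0.258 for MT-TY). MT-TN stood at 1528 and 1651 FPKM in the controls and at 1659 and 2230 FPKM in the labelled libraries, of which replicate 1 hardly exceeded the higher control (limma adjusted p = 0.511). MT-TP showed the reverse order, with 1227 and 1149 FPKM in the controls and 2224 and 1414 FPKM in replicates 1 and 2 (limma adjusted p = 0.359).

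Plus-strand tRNAs were rarer but, as a sum, stood further above the controls. Summed over the strand, they were at 1.83 and 2.41 times the control mean in the libraries labelled KIF26B siRNA replicates 1 and 2, against 1.41 and 1.53 times for minus-strand tRNAs. Not every member followed the sum. On few reads, MT-TF was at 0.279 and 0.494 times the control mean, and MT-TD at 0.413 times in replicate 1. MT-TH, MT-TL1, MT-TL2 and MT-TT, the tRNAs for histidine, leucine (both anticodons) and threonine, are shown as examples of plus-strand members that passed the unadjusted test. MT-TR, MT-TG, MT-TM, MT-TV and MT-TW passed it too. MT-TH lies at chrM:12138-12206, MT-TL1 at chrM:3230-3304, MT-TL2 at chrM:12266-12336 and MT-TT at chrM:15888-15953, all on the plus strand. The anticodon is again in capitals.
MT-TH: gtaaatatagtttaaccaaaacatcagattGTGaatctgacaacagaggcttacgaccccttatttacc
MT-TL1: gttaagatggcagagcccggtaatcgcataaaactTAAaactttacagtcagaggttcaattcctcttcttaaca
MT-TL2: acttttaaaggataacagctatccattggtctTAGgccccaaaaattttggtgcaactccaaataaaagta
MT-TT: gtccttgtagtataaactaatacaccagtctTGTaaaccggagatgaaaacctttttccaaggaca

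MT-TT stood at 6.17 and 5.53 FPKM in the controls (8 and 9 reads) and at 19.9 and 57.9 FPKM in the libraries labelled KIF26B siRNA (28 and 69 reads). The groups did not overlap, and replicate 2 was far above replicate 1. It rose by 2.36 ± 0.54 on the log2(FPKM + 1) scale (SE, n = 2 per group; limma adjusted p = 0.248), a scale that understates the change of genes as low as this.

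MT-TL2 stood at 26.5 and 19.4 FPKM in the controls and at 50.8 and 88.9 FPKM in the labelled libraries, and rose by 1.52 ± 0.34 (limma adjusted p = 0.243). MT-TL1, which follows MT-RNR2 directly in the genome, stood at 68.6 and 51.9 FPKM against 98.6 and 190.4 FPKM, and rose by 1.19 ± 0.38 (limma adjusted p = 0.283). In both, replicate 2 of the labelled libraries was the highest, and without it MT-TL1 was at 0.72 and did not pass. MT-TH, at 161 and 137 against 322 and 241 FPKM, was highest in replicate 1 and rose by 0.90 ± 0.20 (limma adjusted p = 0.243).

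MT-TR (arginine) stood at 64.3 and 56.1 FPKM in the controls and at 97.9 and 177.1 FPKM in the labelled libraries (log2 fold change 1.12, limma adjusted p = 0.273). MT-TG (glycine) stood at 63.7 and 42.9 against 81.2 and 143.2 FPKM (1.03, limma adjusted p = 0.301). Both rose at the unadjusted threshold, but without KIF26B siRNA replicate 2 they were at 0.70 and 0.63, and MT-TG did not pass. They flank MT-ND3, whose own level in replicate 2 was 0.934 times the control mean. Over the 8 tRNAs with at least 50 reads in every library, the ratio to the control mean ran from 1.04 to 2.16 in replicate 1 (median 1.59) and from 1.19 to 3.16 in replicate 2 (median 1.98).

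**Figure D4:**
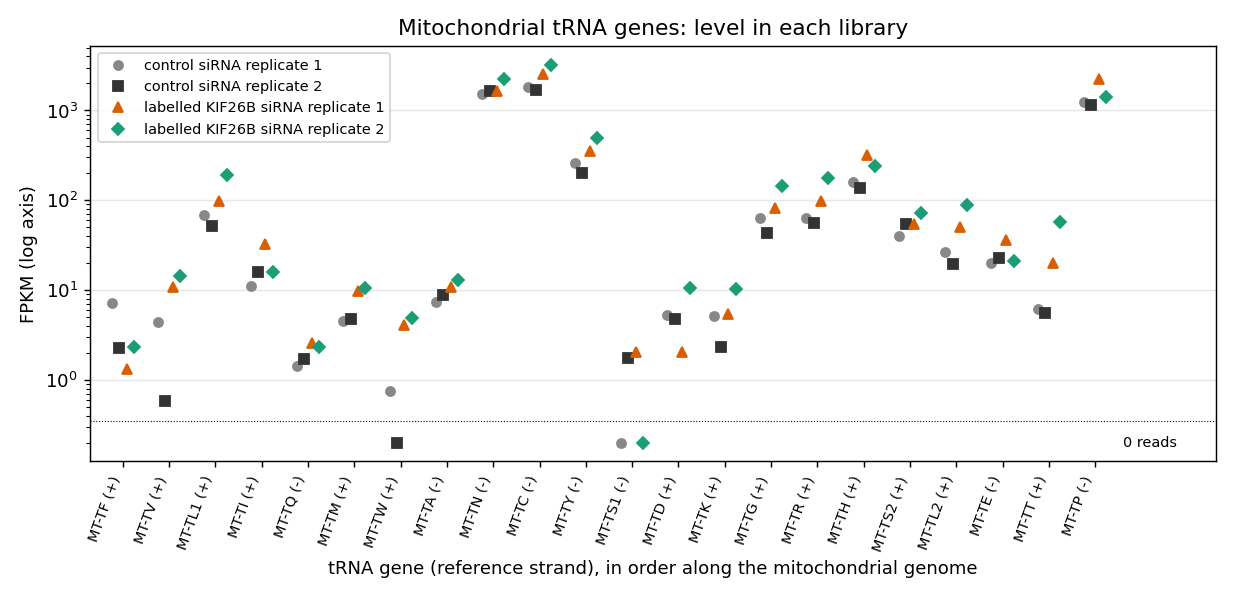
FPKM on a log axis for the 22 tRNA genes in genome order, with the reference strand in brackets, 1 point per library and values of 0 reads drawn below the dotted line. MT-TN, MT-TC and MT-TP stand far above the other tRNAs in all libraries, and at MT-TT the labelled libraries (19.9 and 57.9 FPKM) are above both controls (6.17 and 5.53 FPKM).

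The remaining tRNAs rested on few reads. MT-TM (methionine) had 6 and 8 reads in the controls and 14 and 13 in the libraries labelled KIF26B siRNA, and its 95% Poisson interval, which covers counting error only, was 2.20 to 13.1 reads in control siRNA replicate 1 and 7.65 to 23.5 in KIF26B siRNA replicate 1. MT-TV (valine) had 6 and 1 reads against 16 and 18, and MT-TW (tryptophan) had 1 and 0 against 6 and 6. These 3 passed the unadjusted threshold, as did MT-TA (alanine; 10 and 15 against 16 and 16 reads) and MT-TQ (glutamine; 2 and 3 against 4 and 3 reads), whose counting intervals overlap widely. MT-TQ also shares 3 bases with MT-TI on the opposite strand.

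Another 6 of these tRNAs did not pass. MT-TF (phenylalanine), the first gene of the plus-strand precursor, was the tRNA with the lowest log2 fold change, -0.90 (limma adjusted p = 0.444), on 10 and 4 reads in the controls and 2 and 3 in the labelled libraries. MT-TD (aspartate) had 7 and 8 reads against 3 and 13, MT-TK (lysine) 7 and 4 against 8 and 13, and MT-TI (isoleucine) 15 and 27 against 48 and 20. MT-TE (glutamate) had 27 and 39 reads against 53 and 26, and MT-TS2 (serine) had 46 and 79 against 69 and 76. MT-TS1, the other serine tRNA, had 0, 3, 3 and 0 reads and was left out of the test because its mean was under 1 FPKM.

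Counted over the whole set, 16 of the 36 mitochondrial genes tested (44.4%) rose at an unadjusted limma P below 0.05, where 7.74% of all 14523 genes did, and 0 fell, where 8.68% of all genes did. By class these were 1 of 13 mRNAs (7.69%, close to the share among all genes), 2 of 2 rRNAs and 13 of 21 tRNAs (61.9%). The 13 include MT-TW, which averaged 0.375 FPKM in the controls and entered the test only through the labelled libraries. When at least 1 FPKM was required in every library, 34 mitochondrial genes were tested. Of the 16, 14 then remained, without MT-TV and MT-TW. No mitochondrial gene and 0% of all genes passed an adjusted p below 0.05 in limma. Both labelled libraries were above both controls for 25 of the 36 (69.4%, against 24.9% of all genes). These were 5 mRNAs, 2 rRNAs and 18 tRNAs. The labelled libraries were below both controls for 0, against 27.8% of all genes. For MT-ND4, MT-ND6 and MT-ND1, replicate 2 (6631, 3191 and 2125 FPKM) was little above the higher control (6604, 3119 and 2029 FPKM). Their place among the 5 mRNAs depends on the scaling. The median log2 fold change was 0.26 for mRNAs, 0.65 for rRNAs and 0.87 for tRNAs, with -0.01 for all genes tested. With control siRNA replicate 2 left out, 5 of the 16 remained past the threshold (MT-TL2, MT-TM, MT-TT, MT-TV and MT-TW), and with control siRNA replicate 1 left out, 10 (MT-TG, MT-TH, MT-TL1, MT-TL2, MT-TM, MT-TR, MT-TT, MT-TV, MT-TW and MT-TY). Without KIF26B siRNA replicate 2, 11 of the 16 remained, without MT-TA, MT-TG, MT-TL1, MT-TV and MT-TY, and 26 mitochondrial genes passed in all. Without replicate 1, 15 of the 16 remained, without MT-TV, and 7 mitochondrial genes were among the 2254 of all genes that then passed the adjusted threshold.

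Copies of mitochondrial DNA in the nuclear genome share sequence with their parents, so their reads are uncertain. Of 408 such copies annotated, 3 reached a mean of 10 FPKM, all in a stretch of chromosome 1 (GRCh37). MTND2P28 (chr1:565020-566063) stood at 183.6 and 168.2 FPKM in the controls and at 337.3 and 170.6 FPKM in the libraries labelled KIF26B siRNA, between 7.83% and 8.59% of its parent MT-ND2 in every library, so its ratio to the parent moved little. MTATP6P1 (chr1:569076-569756) stood at 456.5 and 558.2 FPKM against 393.4 and 295.8 FPKM, both below the controls (log2 fold change -0.56, limma adjusted p = 0.308), which is not the pattern of MT-ATP6. MTCO1P12 (chr1:566454-567996) stood at 27.5 and 35.5 against 27.4 and 28.9 FPKM, at most 0.425% of MT-CO1. With all annotated copies added, not only the 3 named, the mitochondrial share differed by the same 2.07 percentage points.

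Nuclear genes that serve the mitochondrial genome were counted by list. Among 10 genes of mitochondrial transcription, 0 rose and 0 fell at an unadjusted limma P below 0.05, where 7.74% of all genes rose and 8.68% fell, so that a count of 0 in a list this short says little (median log2 fold change -0.07). POLRMT, the mitochondrial RNA polymerase, stood at 35.7 and 35.1 FPKM in the controls and at 38.5 and 50.5 FPKM in the labelled libraries (limma adjusted p = 0.437). TFAM, which packages mitochondrial DNA and starts its transcription, stood at 14.3 and 15.3 against 12.6 and 9.73 FPKM (limma adjusted p = 0.350). Both genes had the labelled libraries on 1 side of the controls, with replicate 2 farther out. Without replicate 1 their log2 fold changes were 0.50 and -0.56, which rest on 1 labelled library and show no group change.

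Of 19 tested genes for processing, stability and decay of mitochondrial RNA, 1 fell and 0 rose (median -0.02), beside 8.68% and 7.74% of all genes. The gene that fell was SLIRP, whose product binds mitochondrial mRNAs together with LRPPRC and protects them. SLIRP stood at 17.6 and 20.3 FPKM in the controls and at 13.7 and 9.05 FPKM in the labelled libraries, a log2 fold change of -0.71 ± 0.23 (SE, n = 2 per group; limma adjusted p = 0.287). SLIRP did not pass without either control (-0.81 and -0.61). Its partner LRPPRC stood at 32.6, 32.8, 32.5 and 36.8 FPKM, a log2 fold change of 0.08 that did not pass (limma adjusted p = 0.776).

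Of 15 genes for replication and packaging of mitochondrial DNA, TOP1MT, the mitochondrial topoisomerase, rose, and DNA2 and MGME1, nucleases that act in replication, fell. These counts are near the shares of all genes that rose (7.74%) and fell (8.68%). TOP1MT stood at 6.29 and 6.93 FPKM in the controls and at 10.5 and 11.4 in the labelled libraries (log2 fold change 0.65). DNA2 stood at 7.39 and 6.47 against 4.15 and 3.71 FPKM (log2 fold change -0.68), and MGME1 at 23.4 and 21.8 against 16.6 and 17.6 FPKM (log2 fold change -0.38). DNA2 also acts in the nucleus. In all 3 the labelled libraries lay close together and apart from the controls, with adjusted p values of 0.242, 0.242 and 0.274. Without control siRNA replicate 1 none of the 3 passed the unadjusted threshold (0.59, -0.60 and -0.33), and without replicate 2 only DNA2 did (-0.77, against 0.71 for TOP1MT and -0.43 for MGME1).

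Of 8 tested regulators of mitochondrial biogenesis, 3 rose and 0 fell (median 0.08), beside 7.74% and 8.68% of all genes. MYC, a transcription factor with many targets beyond mitochondria, stood at 78.5 and 78.5 FPKM in the controls and at 146.1 and 157.9 FPKM in the labelled libraries (0.94 ± 0.11 SE, n = 2 per group; limma adjusted p = 0.242). PPRC1, a coactivator, stood at 12.5 and 13.4 against 19.7 and 17.6 FPKM (log2 fold change 0.49), and ESRRA, an orphan nuclear receptor, at 23.1 and 22.1 against 30.6 and 29.8 FPKM (0.41). Their adjusted p values were 0.253 and 0.258, and neither passed without control siRNA replicate 1 (0.44 for both) or replicate 2 (0.54 and 0.38), whereas MYC passed in all 4 cases. PPARGC1A was listed at 0 in all libraries.

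Genes listed for RNAs without a poly(A) tail were examined because mitochondrial rRNAs and tRNAs have short tails or none. Of 14 listed, 10 were present by symbol, with RN7SK under separate identifiers. Among their identifiers, 5 stood at 0 in every library, those of RN7SK, RNU6ATAC, TERC and RMRP. A test was possible for 3, the histone genes H2BC12, H1-2 and H2AC6, with 0 past the threshold in either direction. Every other identifier stood below 1 FPKM in each library. The summed level was 45.1 and 47.6 FPKM in the controls, 70.5 in the library labelled KIF26B siRNA replicate 1 and 33.9 in replicate 2. Nearly all of this sum came from the 3 histone genes, and whether their reads came from RNA without a tail was not tested. The sum is therefore not a measure of RNA without a tail. The library with the most rRNA among its mitochondrial reads had the lowest sum. A change in histone gene expression cannot be told apart here from a change in RNA selection, so no conclusion was drawn from the sum. What part RNA selection has in the mitochondrial levels was not tested.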

How the data were processed

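Expression in 4 HCT116 libraries was compared, 2 with siRNA control and 2 labelled KIF26B siRNA, grouped by the sample labels. The authors selected poly(A) RNA, aligned paired reads with HISAT2 (2.0.5) and counted them with featureCounts (1.5.0-p3, both versions per the submitters' processing notes); options for strand and for reads with several matches are not given in the sources used here. The deposited values are FPKM, a unit read from the values. They are not counts, and whole reads were recovered for all 37 mitochondrial genes with the annotated gene lengths (within 0.01 of a whole number). Recovered reads on genes totalled 18774055 to 24312334 per library with the shortest length that gave whole reads and 21373195 to 27623669 with the nearest to the annotated length, so absolute shares of reads are uncertain, while ratios between libraries hardly change. The authors' library sizes followed median-of-ratios scaling within 0.254%. The study's methods name hg19 and the processing notes hg38; mitochondrial starts and ends were the same in GENCODE for GRCh37 and in RefSeq for GRCh38 for 37 of 37 genes. Symbols were found for 56513 of 58735 identifiers.

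Genes whose mean reached 1 FPKM were tested with limma (3.58.1, R 4.3.3) on log2(FPKM + 1), two-sided, without covariates, with Benjamini-Hochberg adjustment over 14523 genes; residual degrees of freedom were 2 and the prior 2.00. The script was tested on simulated data. Shares and ratios were compared by exact permutation of libraries. All mitochondrial genes were named, as were KIF26B, TFAM, POLRMT, LRPPRC, SLIRP, up to 4 members per nuclear list with the smallest P below 0.05, and nuclear copies with a mean of at least 10 FPKM. The members and lists were chosen with earlier results of these data known. Same-numbered libraries did not deviate together (correlation -0.003), so the numbers were not used as pairs. Alternatives were a replicate block, a pseudocount of 0.1, other filters, other scalings, a variance trend, sums of FPKM, exclusion of genes under 200 bases and leaving out each library; scaling by and shares of recovered reads were added after seeing the data. Tables were handled in Python 3.11.15 with numpy 2.4.6, pandas 2.3.3, scipy 1.17.1 and matplotlib 3.10.9.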

Additional observations from a re-analysis of the deposited data

How the results depend on the processing

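With 2 libraries per group, single libraries decided many values. Without 1 library, the number of mitochondrial genes past the unadjusted threshold ran from 5 to 26 in the higher direction (16 with all libraries) and from 0 to 2 in the lower, and past the adjusted threshold from 0 to 7. Among all genes the ranges were 281 to 3317 higher, 237 to 3424 lower and 0 to 2254 adjusted, and without a filter on low values 2192 were higher and 2186 lower. The difference in mitochondrial share (2.07 percentage points) ran from 1.32 to 2.82 and was 3.97 as a share of summed FPKM, and the log2 ratio of minus to plus strand turned to 0.16 as sums of FPKM. The summed FPKM shares were 25.5% and 25.4% in the controls and 32.8% and 26.0% in KIF26B siRNA replicates 1 and 2. Replicate 2 was thus little above the controls by that measure. Leaving out 1 library also turned log2 fold changes, with a range of -0.061 to 0.86 for MT-ND2, -0.29 to 0.41 for MT-CO2, -0.043 to 0.55 for MT-ATP8, -0.13 to 0.52 for MT-ATP6, -0.091 to 0.48 for MT-CO3, -0.097 to 0.35 for MT-ND3, -0.034 to 0.72 for MT-TE, -0.42 to 0.50 for MT-CYB and -0.043 to 0.94 for MTND2P28, the lowest in each case without KIF26B siRNA replicate 1 and the highest without replicate 2. The range was -0.97 to 0.95 for MT-TD, which had few reads, -0.33 to 0.030 for MTCO1P12 and -0.0096 to 0.17 for LRPPRC. MT-TD was 0.0024 under median-of-ratios scaling and 0.010 when scaled to nuclear fragments, and MT-CYB was -0.0046 when scaled by total recovered reads. With a replicate block, 13 of the 16 genes remained past the unadjusted threshold, without MT-RNR1, MT-TQ and MT-TG, the nuclear genes MGME1 and ESRRA no longer passed it, and the smallest adjusted p was 0.391. Of the 16, 9 remained in all 9 settings with 4 libraries. What caused these shifts was not tested. Depth limits the tRNAs with few reads.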
